A study of Rattus norvegicus with 17 samples.

Results

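The regions described here were places in the rat genome where the chromatin remodeller Brg1 was called in immature oligodendrocytes (iOL) and at no other stage, and where the transcription factor Olig2 was called at 1 or more stages. They were selected on the measured Brg1 and Olig2 peaks themselves. The Brg1 peaks of oligodendrocyte precursor cells (OPC), iOL and mature oligodendrocytes (mOL) were joined where they overlapped or touched, which gave 7633 Brg1 regions. A region was kept when it met an iOL Brg1 peak, no OPC or mOL Brg1 peak, and an Olig2 peak of any stage, where to meet is to overlap by at least 1 bp. This rule kept 2357 regions, 30.9% of all Brg1 regions and 75.0% of the 3141 Brg1 regions called in iOL alone. Their Brg1 and Olig2 calls are therefore a description and support nothing, while the histone marks and RNA polymerase II (RNAPII) were not used in choosing them. They are called iOL-alone sites with Olig2 below.

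All samples came from wild-type Sprague-Dawley rats, as primary cells isolated from the cortex at postnatal day 2 by differential detachment. OPC were labelled as mitogen-treated. The growth medium, listed for the samples of every stage, held PDGF-AA at 10 ng/ml and bFGF at 20 ng/ml. Both iOL and mOL were labelled as treated with the thyroid hormone T3, and the differentiation medium held T3 at 15 nM and ciliary neurotrophic factor at 10 ng/ml. The sources used here do not give times in culture, the number of pups or any pooling of animals, so what separates iOL from mOL is known from the stage labels alone. The protocol text names the isolated and differentiated cells as iOL for the samples of every stage, so stages follow the titles and source names. Chromatin immunoprecipitation with sequencing (ChIP-seq) was run for Brg1, Olig2 and the histone marks H3K27Ac, H3K4me3 and H3K9me3 at all 3 stages, and for RNAPII in OPC and iOL. Each of the 17 libraries gave 1 list of peak positions, with no replicate and no peak height.

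Brg1, encoded by Smarca4, is the ATP-burning motor of the BAF complex, which slides and ejects nucleosomes and so changes how accessible DNA is to transcription factors. Olig2 is a basic helix-loop-helix factor that specifies the oligodendrocyte lineage, and it binds short E-box motifs. H3K27Ac marks active enhancers and promoters, H3K4me3 marks promoters, H3K9me3 marks silenced chromatin, and RNAPII peaks lie where the polymerase gathers, often at gene starts.

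Each site was exactly 1 iOL Brg1 peak, and together they held 43.1% of the 5465 iOL Brg1 peaks. They lay on 21 chromosomes, none on unplaced sequence, and covered 2.44 Mb. Widths ran over 298 to 4952 bp with a median of 954 bp (quartiles 769 and 1197). They were set beside 3 other groups of Brg1 regions. The 784 iOL-alone sites without Olig2 had a median width of 773 bp, the 1698 sites shared by iOL and mOL with Olig2 (none in OPC) 1221 bp, and the 1231 mOL-alone sites with Olig2 814 bp. Width differed between these groups, and comparisons within narrow ranges of width are given beside the pooled ones. The peak lists ran over 332 to 35268 peaks per library, and a longer list meets more regions. Percentages carry exact Clopper-Pearson 95% intervals, and differences of percentages Newcombe 95% intervals in percentage points. Regions of 1 library are not replicates, so these intervals cover the counting of regions only and no p-value between stages or groups is given.

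H3K27Ac lay on under 50% of the iOL-alone sites with Olig2 at every stage, and the iOL stage, where Brg1 was called, did not stand out. In OPC 978 sites met an H3K27Ac peak (41.5%, 39.5 to 43.5), in iOL 950 (40.3%, 38.3 to 42.3) and in mOL 1141 (48.4%, 46.4 to 50.4). Over all Brg1 regions the percentages were 37.2, 46.4 and 62.9. The sites thus stood above all Brg1 regions in OPC and below them in iOL and mOL. The higher value in mOL goes with the longest H3K27Ac list, of 35268 peaks against 19130 in OPC and 21589 in iOL. With the 19130 widest peaks of each stage, the shares were 41.5% in OPC, 38.2% in iOL and 35.3% in mOL, and the order of iOL and mOL turned round.

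Followed site by site, acetylation was lost about as often as it was gained between OPC and iOL. In all, 257 sites (10.9%) had H3K27Ac in iOL and not in OPC, 285 (12.1%) had it in OPC and not in iOL, 693 had it at both and 1122 at neither. Between iOL and mOL, 356 sites had it in mOL and not in iOL, and 165 had it in iOL and not in mOL. Over the 3 stages, the commonest state was no H3K27Ac at all, with 924 sites (39.2%, 37.2 to 41.2) and a median width of 832.5 bp. The next was H3K27Ac at all stages, with 631 sites (26.8%, 25.0 to 28.6) and a median width of 1206 bp. That state was seen at 15.9% of the sites without Olig2, 49.8% of the shared sites and 24.9% of the mOL-alone sites. H3K27Ac in iOL alone, the stage pattern of the Brg1 calls, was seen at 103 sites (4.37%, 3.58 to 5.28). The other groups described above had 11 of 784 sites without Olig2, 48 of 1698 shared sites (2.83%, 2.09 to 3.73) and 28 of 1231 mOL-alone sites (2.27%, 1.52 to 3.27). OPC alone had 127 sites and mOL alone 198, while OPC with iOL had 62, OPC with mOL 158 and iOL with mOL 154. None of the 3 marks was called at any stage at 908 sites (38.5%, 36.6 to 40.5). Over all 7633 Brg1 regions, 2333 had no H3K27Ac at any stage and 2293 (30.0%) had none of the 3 marks. The share with none of the marks was 58.7% at the sites without Olig2, 14.3% at the shared sites and 22.1% at the mOL-alone sites.

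**Figure D1:**
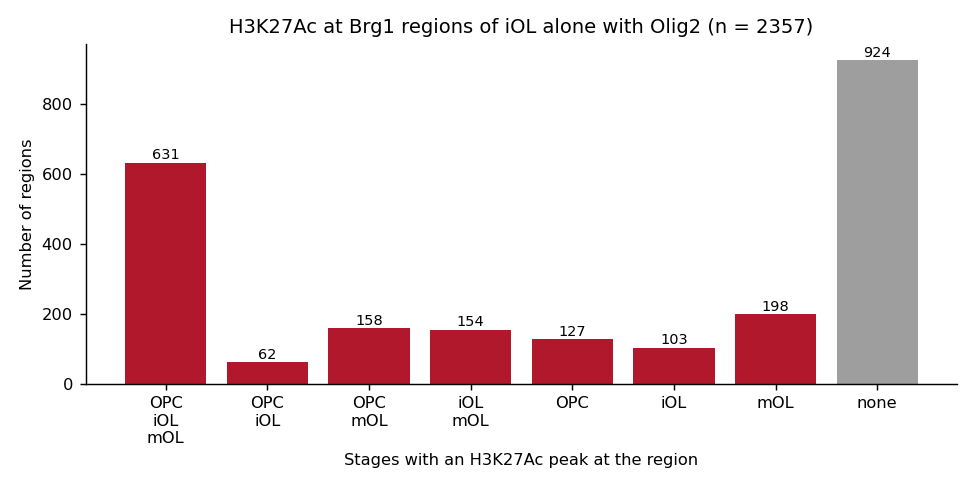
Number of iOL-alone sites with Olig2 (vertical axis, of 2357) in each combination of stages with an H3K27Ac peak (horizontal axis). The 924 sites with no H3K27Ac (grey) and the 631 sites with it at all stages are the tallest bars, and 103 sites had it in iOL alone.

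The sites shared by iOL and mOL behaved otherwise. There H3K27Ac met 55.6% in OPC, 70.7% in iOL and 79.6% in mOL. The iOL-alone sites with Olig2 were lower at each stage, with differences of -14.1 points in OPC (-17.2 to -11.0), -30.4 in iOL (-33.3 to -27.4) and -31.2 in mOL (-33.9 to -28.4). The groups also differed in how single sites fared between OPC and iOL. Of the sites acetylated in OPC, 70.9% were still acetylated in iOL among the iOL-alone sites with Olig2, against 92.2% among the shared sites. H3K27Ac in iOL and not in OPC was seen at 10.9% of the iOL-alone sites with Olig2 and at 19.5% of the shared sites (difference -8.59 points, -10.9 to -6.34). H3K27Ac in OPC and not in iOL was seen at 12.1% of the iOL-alone sites with Olig2 and at 4.36% of the shared sites (difference 7.73 points, 6.08 to 9.36).

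The mOL-alone sites with Olig2 had H3K27Ac at 27.9% in OPC, 50.6% in iOL and 74.9% in mOL. Against them the iOL-alone sites with Olig2 were higher in OPC (difference 13.6 points, 10.4 to 16.8) and lower in iOL (difference -10.3, -13.7 to -6.87) and mOL (difference -26.5, -29.6 to -23.3). From the narrowest to the widest quartile the OPC difference was 6.24 (1.92 to 10.5), 1.88 (-4.54 to 8.03), 3.46 (-3.92 to 10.6) and 13.1 points (4.52 to 22.0), so the intervals of the middle quartiles held 0. In the same order the iOL differences were -10.7, -21.5, -26.8 and -16.9 points. The mOL differences were -34.6, -39.7, -37.3 and -18.4 points. Every interval in iOL and mOL lay below 0. The iOL-alone sites without Olig2 had H3K27Ac at 20.9% in OPC, 22.4% in iOL and 36.1% in mOL. The sites with Olig2 were higher by 20.6 points in OPC (17.0 to 23.9), 17.9 points in iOL (14.2 to 21.3) and 12.3 points in mOL (8.34 to 16.2). Much of the gap from the sites without Olig2 went with width: in iOL the narrowest quartile kept 12.3 points, while the wider quartiles had 5.40 (-1.90 to 12.0), 7.87 (-2.06 to 16.9) and 7.86 points (-2.65 to 19.1), each interval holding 0. In OPC the intervals of the wider quartiles held 0, at 6.54 (-3.47 to 15.8) and 9.76 points (-0.512 to 20.9). In mOL the intervals of all quartiles held 0 and the direction turned in the wider ones, with 5.15, 4.60, -6.71 and -2.12 points from the narrowest to the widest.

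**Figure D2:**
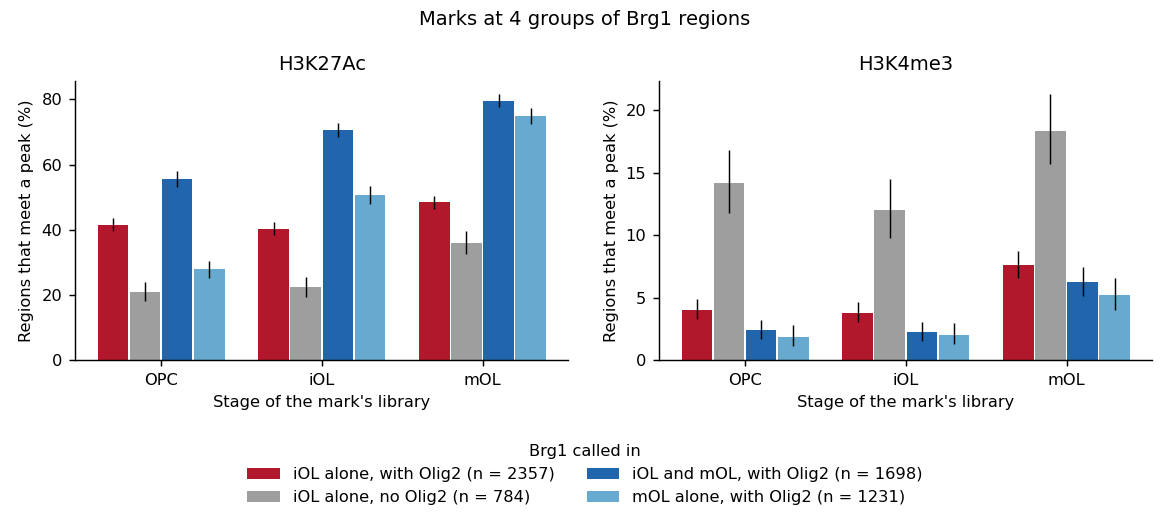
Percentage of regions that met a peak of H3K27Ac (left panel) and H3K4me3 (right panel, its own scale) by stage, for iOL-alone sites with Olig2, iOL-alone sites without Olig2, sites shared by iOL and mOL with Olig2, and mOL-alone sites with Olig2; error bars are exact 95% intervals over regions. The iOL-alone sites with Olig2 stayed between 40.3 and 48.4% for H3K27Ac, against 55.6 to 79.6% for the shared sites, and had less H3K4me3 than the sites without Olig2 at each stage.

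Acetylation climbed with the width of the Brg1 peak. From the narrowest to the widest quartile of the iOL-alone sites with Olig2, H3K27Ac in iOL met 22.2%, 29.8%, 41.5% and 67.9%. Within quartiles the gap from the shared sites depended on the stage of the mark. To keep the shared sites from being widened by their mOL peak, the iOL Brg1 peak alone was taken in both groups, a choice made after the data had been seen. In OPC the differences were then -0.498 (-6.96 to 5.30), -5.81 (-12.2 to 0.515), -6.67 (-13.0 to -0.323) and -4.77 points (-9.50 to -0.0958). In iOL they were -13.4 (-20.6 to -6.42), -27.4 (-33.7 to -20.8), -29.5 (-35.3 to -23.4) and -19.1 points (-23.5 to -14.6). In mOL they were -26.8, -29.9, -26.6 and -15.8 points. In each quartile the iOL-alone sites with Olig2 thus lay further below the shared sites in iOL and mOL than in OPC, where the intervals of the narrower quartiles hold 0. How far the differences change between stages was not tested. With the joined regions in place of single peaks, the OPC differences were 5.27, -0.107, -1.72 and -1.43 points, and every interval held 0. The iOL differences were then -5.07 (-14.2 to 2.90), -19.5, -22.9 and -18.4 points, with an interval that holds 0 in the narrowest quartile alone.

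**Figure D3:**
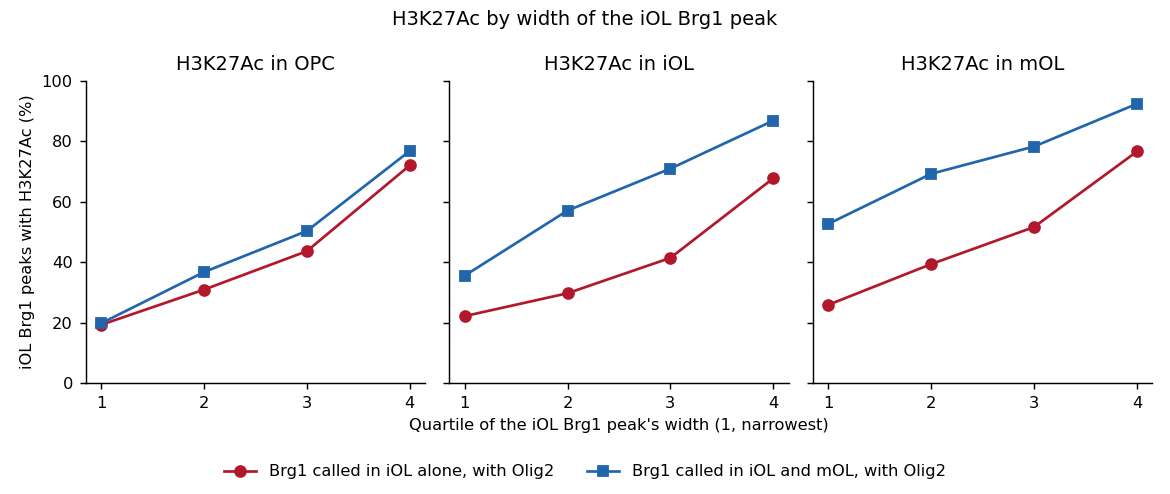
Percentage of iOL Brg1 peaks with H3K27Ac (vertical axis) by quartile of peak width (horizontal axis, quartiles of the iOL-alone sites with Olig2, 1 the narrowest), 1 panel per stage; circles are iOL-alone sites with Olig2 and squares sites shared by iOL and mOL. Differences between the lines run over -6.67 to -0.498 points in OPC and -29.5 to -13.4 points in iOL.

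Olig2 occupancy at these sites was mostly that of OPC and iOL. An Olig2 peak of OPC met 2132 sites (90.5%), one of iOL 2027 (86.0%) and one of mOL 394 (16.7%), where all Brg1 regions had 65.3, 67 and 17.8%. The rule asked for Olig2, so the excess in OPC and iOL is set at least in part by the choice of regions. The low mOL value goes with the short mOL list: with the 2759 widest Olig2 peaks of each stage the shares were 19.7% in OPC, 16.6% in iOL and 16.7% in mOL. With the full lists, the shared sites, chosen with the same Olig2 rule, had 91.5% in OPC, 94.3% in iOL and 32.9% in mOL. The mOL-alone sites with Olig2 had 70.6, 89.0 and 21.0%. By stage pattern, 1414 sites (60.0%) had Olig2 in OPC and iOL, 388 (16.5%) at all stages, 328 (13.9%) in OPC alone and 221 (9.38%) in iOL alone. Another 4 had it in iOL and mOL, 2 in OPC and mOL, and none in mOL alone. Thus 330 sites had no Olig2 peak in iOL, the stage at which Brg1 was called.

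Brg1 and Olig2 peaks lay close together, which is set in part by the choice of regions. Each site had to overlap an Olig2 peak, and distances were read only where one was met. The median distance between the centre of a site and that of the nearest Olig2 peak it met was 95.75 bp in OPC, 106 bp in iOL and 88.5 bp in mOL, and 77.3, 76.4 and 83.0% were within 200 bp. The shared sites had nearly the same medians, 97.5, 108 and 102 bp. At 97.2% of the sites, Olig2 covered at least 50% of the width. OPC Olig2 peaks were wide, none under 703 bp, and 76.7% of the sites that met one lay wholly inside it, against 12.4% for iOL Olig2 peaks.

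**Figure D4:**
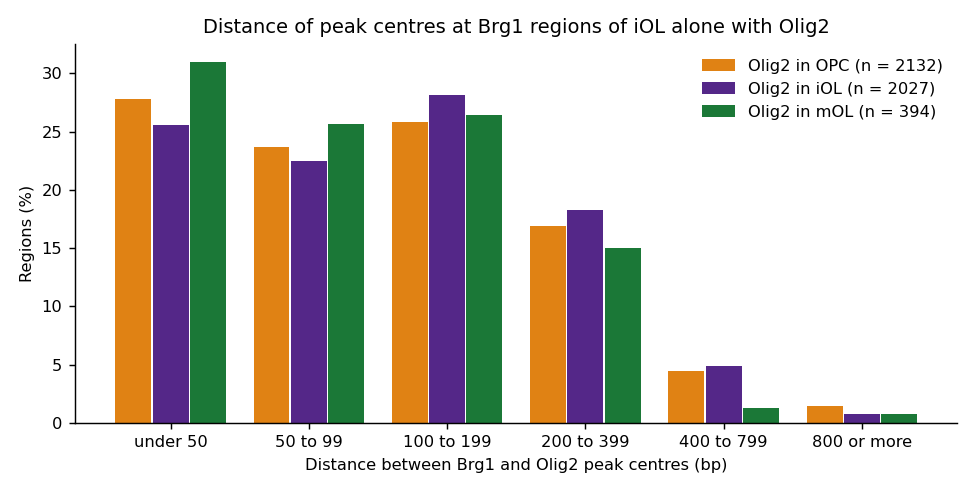
Distance between the centre of an iOL-alone site and the centre of the nearest Olig2 peak it met (horizontal axis, bp) against the percentage of sites (vertical axis), for Olig2 peaks of OPC, iOL and mOL. Distances under 200 bp held 77.3% of the sites in OPC, 76.4% in iOL and 83.0% in mOL. The sites were chosen to overlap Olig2, which sets short distances in part.

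Sites with Olig2 called in iOL alone were more often acetylated than sites with Olig2 in OPC alone, most of all in iOL. At the 221 sites with Olig2 in iOL alone, H3K27Ac met 40.3% in OPC, 60.6% in iOL and 55.2% in mOL. At the 328 sites with Olig2 in OPC alone it met 29.3%, 22.6% and 39.3%. In iOL the sites with Olig2 of iOL alone were 38.1 points higher than those with Olig2 of OPC alone (29.9 to 45.6), in OPC 11.0 points (2.91 to 19.1) and in mOL 15.9 points (7.37 to 24.1). Median widths were 900 bp for Olig2 of iOL alone and 838 bp for Olig2 of OPC alone. Among the wider sites of each set, iOL H3K27Ac met 84.5% of 97 sites with Olig2 of iOL alone and 36.5% of 115 with Olig2 of OPC alone. Among the narrower it met 41.9% of 124 sites with Olig2 of iOL alone and 15.0% of 213 with Olig2 of OPC alone.

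Gains and losses of acetylation at single sites went the same way. Between OPC and iOL, 56 of the 221 sites with Olig2 in iOL alone gained H3K27Ac and 11 lost it. Of the 328 sites with Olig2 in OPC alone, 17 gained it and 39 lost it. Equal-number H3K27Ac lists gave 40.3, 58.8 and 42.5% for Olig2 of iOL alone and 29.3, 20.7 and 26.8% for Olig2 of OPC alone. The iOL value was the highest of the stages in the first set and the lowest in the second. The gap in iOL between these sets was also present at the sites shared by iOL and mOL. There iOL H3K27Ac met 76.1% of 138 sites with Olig2 of iOL alone and 43.2% of 95 with Olig2 of OPC alone. That gap is thus not particular to the iOL-alone sites. Nor is the rise from OPC to iOL with Olig2 of iOL alone. At the shared sites of that kind H3K27Ac met 45.7% in OPC and 76.1% in iOL. The fall from OPC to iOL was not seen at the shared sites with Olig2 of OPC alone. H3K27Ac met 36.8% of them in OPC, 43.2% in iOL and 70.5% in mOL.

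The 388 sites where Olig2 was called at all stages were not the most acetylated. H3K27Ac met 27.3% of them in OPC, 34.0% in iOL and 36.9% in mOL, against 48.5, 42.9 and 52.5% of the 1414 sites with Olig2 in OPC and iOL (difference in iOL -8.91 points, -14.1 to -3.42). Median widths were 950 bp with Olig2 at all stages and 988.5 bp with Olig2 in OPC and iOL. Among the wider sites, iOL H3K27Ac met 44.8% of 192 with Olig2 at all stages and 56.1% of 772 with Olig2 in OPC and iOL. Among the narrower sites the gap was small. There it met 23.5% of 196 (17.7 to 30.0) with Olig2 at all stages and 27.1% of 642 (23.7 to 30.7) with Olig2 in OPC and iOL. H3K4me3 was nearly absent from the sites with Olig2 at all stages: 0 in OPC, where the exact interval reaches 0.946%, 1 in iOL and 7 in mOL. Read the other way, mOL Olig2 lay at 66 of the 631 sites acetylated at all stages (10.5%, 8.18 to 13.1) and at 190 of the 924 sites never acetylated (20.6%, 18.0 to 23.3).

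**Figure D5:**
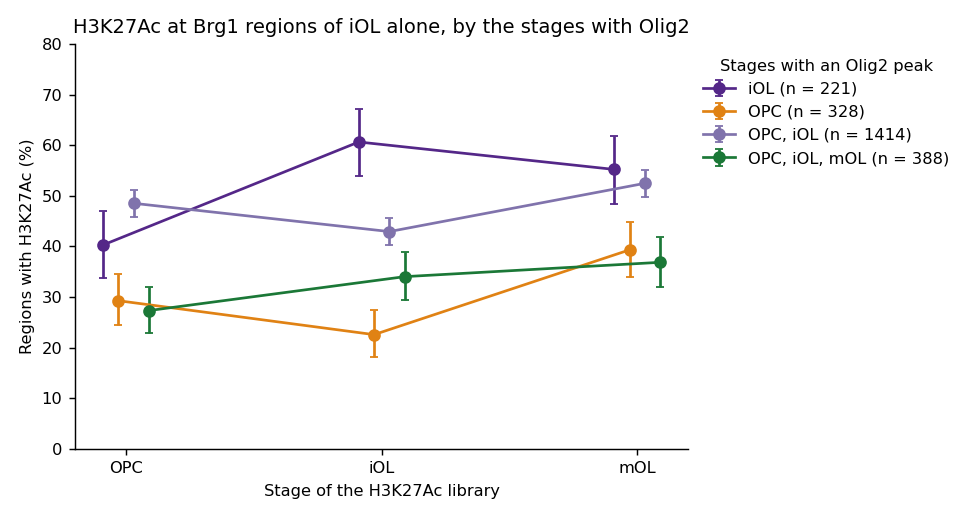
Percentage of iOL-alone sites with H3K27Ac (vertical axis) by stage of the H3K27Ac library (horizontal axis), 1 line per combination of stages with Olig2; error bars are exact 95% intervals over regions. Sites with Olig2 in iOL alone reached 60.6% in iOL, against 22.6% for sites with Olig2 in OPC alone.

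Few sites carried the promoter mark. H3K4me3 met 95 sites in OPC (4.03%, 3.27 to 4.90), 90 in iOL (3.82%, 3.08 to 4.67) and 179 in mOL (7.59%, 6.56 to 8.74), with 4.15, 3.85 and 7.8% over all Brg1 regions. All 179 sites with H3K4me3 at any stage had it in mOL, 78 of them at all stages and 72 in mOL alone. This is not particular to them: over all Brg1 regions, 595 of the 600 with H3K4me3 had it in mOL. The mOL H3K4me3 list was also the longest, with 17530 peaks against 11758 in OPC and 10467 in iOL. The iOL-alone sites without Olig2 met H3K4me3 more often, at 14.2% in OPC, 12.0% in iOL and 18.4% in mOL. The sites with Olig2 were lower than these at each stage, with differences of -10.1 points in OPC (-12.8 to -7.70), -8.17 in iOL (-10.7 to -5.91) and -10.8 in mOL (-13.8 to -7.98). Every width quartile showed this direction, and in mOL the gap widened with width, to 11.4% of the widest sites with Olig2 against 45.9% of the 85 equally wide sites without it. The shared sites had 2.41% in OPC, 2.24% in iOL and 6.24% in mOL. The iOL-alone sites with Olig2 were higher by 1.62 points in OPC (0.505 to 2.69) and 1.58 in iOL (0.502 to 2.62), while the mOL difference of 1.35 points had an interval that holds 0 (-0.252 to 2.90). Within width quartiles the iOL difference held 0 in its interval in all but the widest.

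Most sites lay far from any promoter mark. The median distance to the nearest H3K4me3 peak of any stage was 67619 bp, close to 64714.5 bp for the shared sites and longer than the 41867 bp for iOL-alone sites without Olig2. Under 5 kb without overlap lay 129 sites (5.47%), and at 200 kb or more 578 (24.5%). H3K27Ac in iOL thinned out with this distance. It met 78.2% of the sites that overlapped H3K4me3, 56.6% of those under 5 kb away, 45.2% at 5 to 50 kb, 37.4% at 50 to 200 kb and 22.8% at 200 kb or more. OPC Olig2 ran the other way, from 81.0% at overlap to 93.4% at 200 kb or more. From the nearest to the farthest sites, iOL Olig2 had no steady trend, with 82.7, 89.9, 84.9, 87.9 and 84.9%. In the same order mOL Olig2 met 3.91, 19.4, 16.9, 17.6 and 18.7%. The rule asked for Olig2 of any stage, so these Olig2 values are a description.

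RNAPII was called at very few sites, 2 in OPC (0.0849%, 0.0103 to 0.306) and 14 in iOL (0.594%, 0.325 to 0.995), where all Brg1 regions had 0.0524 and 1.18%. In iOL the other groups had 11 of 784 sites without Olig2, 31 of 1698 shared sites (1.83%) and 20 of 1231 mOL-alone sites (1.62%). The difference was -0.809 points from the sites without Olig2 (-1.93 to -0.0727), -1.23 from the shared sites (-2.02 to -0.562) and -1.03 from the mOL-alone sites (-1.93 to -0.334). In the narrowest width quartile all these differences turned positive, with intervals that hold 0. In quartile 3, counted from the narrowest, 0 was held from the shared sites (-0.0605, -1.53 to 1.10) and from the sites without Olig2 (-1.97, -6.85 to 0.0674). From the mOL-alone sites it was not (-2.17, -5.11 to -0.363). The difference from the sites without Olig2 was also lost with overlap of 50% of the shorter interval (-0.256, -1.18 to 0.305), with Olig2 of iOL required (-0.436, -1.28 to 0.210) and on the middle 200 bp (-0.384, -1.35 to 0.212). The 16 sites with RNAPII at either stage were mostly in active chromatin: 14 were acetylated at all stages, 9 had H3K4me3, and none had Olig2 in mOL.

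The silencing mark H3K9me3 met 4 sites in OPC (0.170%), 1 in iOL (0.0424%) and 11 in mOL (0.467%), with 0.21, 0.0262 and 0.55% over all Brg1 regions. Intervals of the differences from each other group hold 0. Of the 13 sites with it at any stage, 6 had iOL H3K27Ac and 12 had Olig2 in OPC, near the 40.3% and 90.5% of all iOL-alone sites with Olig2.

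The widest site was chr8:10162055-10167006 (rn4), 4952 bp of Brg1 in iOL. It met H3K27Ac peaks of 7634 bp in OPC, 5934 and 846 bp in iOL and 8945 bp in mOL. It also had Olig2 in OPC (1997 bp) and iOL (1879 bp) and H3K4me3 at all stages. Its nearest OPC or mOL Brg1 peak was 721 bp away. The next widest, chr6:39492211-39496281 with 4071 bp, had Olig2 in iOL alone (widest peak 1805 bp) and H3K4me3 at all stages. Its widest H3K27Ac peaks were 5787 bp in OPC, 5835 bp in iOL and 5847 bp in mOL. The third, chr5:101397193-101401232 with 4040 bp, had Olig2 in OPC and iOL, H3K27Ac at all stages and H3K4me3 in mOL. These widest sites carried the promoter mark, unlike most of the set.

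Single sites show the range of states away from promoters. The widest with Olig2 at all stages, chr2:116621647-116624791 (3145 bp), had H3K27Ac peaks of up to 1482 bp in OPC, 2456 bp in iOL and 7330 bp in mOL, and no H3K4me3. The widest with H3K27Ac in iOL alone was chr1:221090635-221092586 (1952 bp), which met a single acetylated peak of 469 bp and had Olig2 at all stages. H3K27Ac of OPC alone was represented by chr15:59513310-59515102 (1793 bp, acetylated peak 488 bp) and of mOL alone by chr2:172172773-172174499 (1727 bp, acetylated peak 1118 bp). The widest with no H3K27Ac was chr8:27765477-27767353 (1877 bp), with Olig2 peaks of 1339 bp in OPC and 1297 bp in iOL.

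The polymerase and the silencing mark can be seen at a few named sites. The widest site with RNAPII was chr4:22067170-22070182 (3013 bp), where the polymerase was called in OPC, Olig2 in iOL alone and H3K4me3 at all stages. At chr13:74772293-74774717 (2425 bp) an iOL RNAPII peak of 1054 bp lay with Olig2 of OPC and iOL, H3K27Ac at all stages and H3K4me3 at all stages. The widest with H3K9me3, chr4:105843329-105844856 (1528 bp) and chr4:173473763-173475240 (1478 bp), had H3K27Ac at all stages too, with H3K9me3 in OPC and mOL at the first and in mOL at the second.

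The sites were scattered singly. Joined across gaps of up to 12500 bp, 2193 stood alone, 79 clusters held 2 and 2 clusters held 3. The larger clusters were chr1:219662834-219677686 and chr6:15111529-15123145. Within the first, 1 site was acetylated at all stages, 1 in mOL and 1 never. Within the second, all had Olig2 in OPC and iOL, and 1 was acetylated in OPC and mOL, 1 in mOL and 1 never. The pair at chr1:2826505-2831129, named as the first by position among the 79 pairs, held 1 site with Olig2 at all stages and no H3K27Ac, and 1 site with Olig2 in OPC and iOL and H3K27Ac at all stages. H3K27Ac peaks of iOL joined across the same gap gave 12042 domains, of which 926 (7.69%) held a site and 36 held 2 or more. Domains with a site had a median length of 2.0095 kb, against 1.415 kb for those without. A longer domain has more room to meet a site, which sets this order in part. Of the 963 sites in an iOL domain, 129 (13.4%) shared it with an mOL Brg1 peak, and 17.9% of all iOL domains held such a peak. With gaps of 5 kb the values were 7.89% of the sites in a domain and 15.9% of domains. Shares of sites and of domains are unlike, and the sites were chosen to meet no mOL Brg1 peak. No difference is therefore read from these values.

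The edge of the rule touched few sites. The median distance to the nearest mOL Brg1 peak was 139251 bp. An OPC or mOL Brg1 peak lay within 1000 bp of 44 sites (1.87%) and within 12500 bp of 260 (11.0%). The nearest were chr1:211837374-211838260, with a gap of 23 bp, and chr20:43566911-43568290, with a gap of 35 bp, both acetylated at all stages. Just outside the rule, chr17:25745158-25746335 overlapped an mOL Brg1 peak by 162 bp and had no H3K27Ac, and chr16:36021229-36022463 overlapped one by 207 bp and had H3K27Ac in iOL and mOL. At 12 sites the overlap with Olig2 was under 100 bp, and 51 of the 784 sites without Olig2 had an Olig2 peak within 1000 bp.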

How the data were processed

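Peaks are the authors' own: the submitters' processing notes give rn4 as build and MACS 1.4.0 as caller, and per the labels' protocols fragment libraries were made for SOLiD sequencing. Each deposited file held 3 columns, chromosome, start and end in bp, with no score, so the deposited values are positions of another kind than counts or signal. The sources used here do not give read depth, aligner, threshold, control library or filters. BED starts were taken as 0-based and 1 was added. A deeper library or looser threshold gives more and wider peaks, which enters every share.

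The regions and lists were chosen with earlier results of these data known. Overlap meant at least 1 bp. Width quartiles are those of the iOL-alone sites with Olig2. Equal-number lists kept the widest peaks. Regions named by position were the widest of each kind, the 3 clusters with the most sites (ties to the first by position), and those nearest the rule's edge. No gene names or sequences are given, as no genome of the files' build was at hand. Other settings were overlap of 50% of the shorter interval, flanks of 1000 bp, the middle 200 bp, the wider 50% of regions, no Brg1 of other stages within 1000 bp, Olig2 of iOL required, no unplaced sequence, equal-number lists and a 5 kb joining gap. The iOL peak alone as region and equal-number Olig2 lists were added after seeing the data. Scripts ran on numpy 2.4.6, scipy 1.17.1, pandas 2.3.3 and matplotlib 3.10.9 under Python 3.11.15, were tested on simulated lists, and matched bedtools 2.31.1 for 15 overlap or merge counts.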

Additional observations from a re-analysis of the deposited data

Results flagged for a closer look

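Between OPC and iOL the share with H3K27Ac moved in opposite directions in groups set beside each other. It changed by -1.19 points at the iOL-alone sites with Olig2 and by 15.1 points at the sites shared by iOL and mOL. Within the iOL-alone sites it changed by 20.4 points where Olig2 was called in iOL alone and by -6.71 points where it was called in OPC alone. At the shared sites it rose in both sets, from 45.7 to 76.1% with Olig2 in iOL alone and from 36.8 to 43.2% with Olig2 in OPC alone. Each value rests on 1 library per stage, and the difference between the groups' changes was not tested. With equal-number H3K27Ac lists the change was -3.27 points at the iOL-alone sites with Olig2 and 13.5 at the shared sites, 18.6 with Olig2 in iOL alone and -8.54 with Olig2 in OPC alone.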

How the results depend on the processing

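Of 343 values under other settings, 280 kept their direction and their size or side of 0. The shares of iOL-alone sites with H3K27Ac in OPC, iOL and mOL were 38.6, 37.7 and 44.9% on the middle 200 bp and 57.9, 54.7 and 64.2% for the wider 50% of sites. Equal-number lists gave 38.2% in iOL and 35.3% in mOL, Olig2 of iOL required 43.2% in iOL, and overlap of 50% of the shorter interval 46.4% in mOL. H3K4me3 was 5.26% in OPC and 5.09% in iOL within 1000 bp, and 9.61% in mOL for the wider 50%. Clusters fell to 40 with gaps of 5 kb. Within width quartiles, intervals of these differences of H3K27Ac came to hold 0. From the shared sites they were 5.27, -0.107, -1.72 and -1.43 points in OPC from the narrowest quartile to the widest, -5.07 in iOL (narrowest), and -0.498 and -5.81 in OPC with iOL peaks alone (narrower quartiles); for H3K27Ac in iOL and not OPC, -4.52 (narrowest) and -3.42 (widest, iOL peaks alone). From the sites without Olig2 they were 6.54 and 9.76 in OPC (wider quartiles), 5.40, 7.87 and 7.86 in iOL (all but the narrowest) and 5.15, 4.60, -6.71 and -2.12 in mOL (narrowest to widest). From the mOL-alone sites they were 1.88 and 3.46 in OPC (middle quartiles). RNAPII differences in iOL turned to 0.158 points from the sites without Olig2 and 0.678 from both other groups in the narrowest quartile. In quartile 3 their intervals held 0 at -1.97 from the sites without Olig2 and -0.0605 from the shared sites. The cause of these changes was not tested. E-box motifs were not searched, for want of a genome of the files' build. No paired analysis was possible because there is 1 library per target and stage and no result comes from a test. List lengths, unknown depth and single libraries limit every comparison of stages.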

Other observations

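Chromosome X held few Brg1 regions, and most of them were iOL-alone sites with Olig2. Of 70 Brg1 regions on X, 44 were such sites (62.9%, 50.5 to 74.1), against 2313 of 7556 on the autosomes (30.6%, 29.6 to 31.7), a difference of 32.2 points (20.5 to 42.7). Single autosomes ranged over 24.8% (chromosome 9) to 35.8% (chromosome 16). X held 3 of the 452 Brg1 peaks in OPC, 63 of 5465 in iOL (1.15%, 0.887 to 1.47) and 19 of 4378 in mOL (0.434%, 0.261 to 0.677). Of Olig2 peaks X held 2.21% at the OPC stage, 1.64% at iOL and 1.81% at mOL, and of H3K27Ac peaks 2.23, 1.90 and 1.98%. X was picked out after the values by chromosome had been seen, the shares come from the calls that chose the sites, and the sources used here do not give the sex of the pups.

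The position of H3K27Ac relative to the Brg1 centre was also read. In iOL the centre of 813 sites lay inside an H3K27Ac peak (34.5%, 32.6 to 36.5), 27 sites had H3K27Ac peaks on both sides within 1000 bp and none at the centre, and 124 had one on 1 side. The corresponding numbers were 833, 29 and 142 in OPC and 985, 36 and 140 in mOL. A gap between called H3K27Ac peaks at the Brg1 centre was thus seen at 1.23% of all sites in OPC, 1.15% in iOL and 1.53% in mOL. In the same order, 57.4, 59.1 and 50.7% of sites had no H3K27Ac peak within 1000 bp of the centre. Peak positions cannot show a dip inside a called peak.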
